A study of Solanum dulcamara with 18 samples.

Results

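The drought effect in caterpillar-infested leaves of bittersweet nightshade (Solanum dulcamara), a perennial climber related to tomato and potato, was measured by RNA-seq. It was read from 6 of the 18 libraries of the series, taken by their titles: 3 libraries of drought plants with caterpillars against 3 libraries of control-watered plants with caterpillars. All 6 came from greenhouse plants that had been under their water regime for 5 days before larvae of Spodoptera exigua, the beet armyworm, were added, and the water regime continued through 2 days with the insects (48 h of feeding). What both groups share is therefore the feeding, and what differs by label is drought against control watering. The other 12 libraries were 3 each of uninfested control, uninfested drought, uninfested flooding and infested flooding leaves, on the same schedule. The series design calls the 3 libraries of a group biological replicates. Whether a library is 1 plant or a pool, the severity of the drought, the number of larvae and the leaf area eaten are not given in the sources used here.

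In plants short of water, the hormone abscisic acid accumulates, binds its receptors and releases a kinase cascade that closes stomata and switches on genes for protective proteins and osmolytes, while growth and photosynthesis genes are turned down. Chewing by caterpillars triggers the jasmonate pathway, which in the tomato family switches on proteinase inhibitors and other defence proteins. Both hormones act in the same leaf when a dry plant is eaten, and the series sets water treatments and feeding side by side to examine that situation. The features counted here were assembled contigs, that is, stretches of transcript rebuilt from reads. The deposited tables gave them an ID and a length and no gene name, so no contig is assigned to these pathways, and the label leaf was not checked against marker genes.

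In infested plants a small share of the leaf contigs passed the test for drought, and more of these fell than rose. A contig that missed the test is not shown to be unchanged. Of 20170 contigs tested with edgeR's quasi-likelihood test, 961 (4.76%) passed a Benjamini-Hochberg adjusted p of 0.05, and these are the contigs named called below. Of all contigs tested, 378 (1.87%) rose in drought and 583 (2.89%) fell. With a fold of at least 2 added, 121 (0.6%) rose and 292 (1.45%) fell, and at a fold of at least 4 the counts were 24 and 73. At a fold of at least 8 the numbers were 9 raised and 11 lowered. Over all contigs the log2 fold change had a median of 0.0094, with quartiles of -0.22 and 0.22, so the bulk of the transcriptome was centred near 0. In a bulk leaf sample, fewer cells of a type and less RNA per cell cannot be told apart.

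The 6 infested libraries held between 8667361 and 10614466 counted reads. Log2 CPM (CPM being counts scaled to a common TMM-adjusted library size) correlated across contigs at 0.978 to 0.981 within the infested drought group. The correlations were 0.974 to 0.977 within the infested control group and 0.957 to 0.971 between the groups. The first principal component of the 6 libraries carried 43.4% of the variance. Infested drought libraries lay between 27.9 and 38.7 on it and infested control libraries between -47.2 and -19.8. The control library nearest to the drought libraries was number 2, and the drought library nearest to the controls was also number 2.

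The count of calls depended on which libraries were kept. Without infested drought library 1, 2 or 3 it was 347, 483 or 332. Without infested control library 1, 2 or 3 it was 392, 841 or 302. The share of called contigs that fell was between 54.2% and 66.6% when any 1 of the 18 libraries was left out, against 60.7% with all of them. The calls were nearly all separated by group, with 958 of the 961 having no overlap between the 3 drought and the 3 control values. Over all tested contigs, 27% had no such overlap. The same libraries made the calls, so the separation of called contigs is favoured by the choice. With 3 libraries against 3, an exact permutation test of a single contig cannot give a p under 0.1, so single contigs are judged by the model fitted to all of them.

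**Figure D1:**
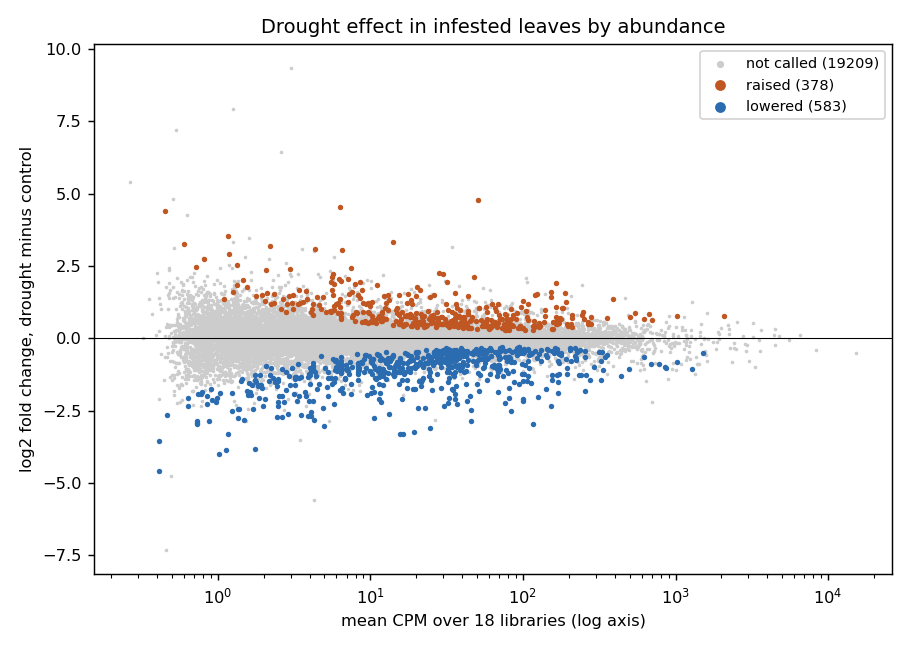
Each point is 1 of 20170 contigs, with its mean CPM over the 18 libraries on a log axis and its log2 fold change (infested drought minus infested control) on the vertical axis. Orange marks the 378 raised and blue the 583 lowered contigs, and grey the 19209 not called; the most extreme fold changes belong to contigs of low CPM and were mostly not called.

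Called contigs were a larger share of the abundant transcripts. Among the 1426 contigs with a mean of 128 CPM or more, 3.23% rose and 4.35% fell. Among the 1172 under 1 CPM, 0.341% rose and 1.54% fell. The size of the change went the other way, with a median absolute log2 fold change among called contigs of 2.39 under 1 CPM and 0.72 at 128 CPM or more. Contigs with few reads can pass the test only with a large change, and the part of read depth in these shares was not tested. By length, 1.03% of the shortest contigs (501 to 789 bases, 5061 contigs) rose and 2.33% fell. Of the longest (1855 bases or more, 5042 contigs) 2.62% rose and 2.84% fell. No called contig was at 0 reads in all 3 libraries of either group. Of the 120 assembly components with more than 1 tested contig, 12 had 1 called contig and 0 had 2.

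The raised contigs together took up more of the transcriptome under drought. In infested drought libraries 1, 2 and 3 the 378 raised contigs held 2.90%, 2.65% and 2.87% of the CPM, and in infested control libraries 1.72%, 1.76% and 1.56%. For the 583 lowered contigs the values were 2.94%, 2.87% and 2.76% under drought and 5.34%, 4.96% and 5.55% in controls. These libraries chose the contigs, so the gap between them is a description. In the uninfested libraries, which did not, the raised contigs held 2.96% ± 0.20 (SD, n = 3) under drought and 1.83% ± 0.09 in controls. The lowered contigs held 2.57% ± 0.23 and 4.78% ± 0.18. Neither pair of uninfested groups overlapped. In the 3 infested flooding libraries the raised contigs held 2.76% ± 0.19 and the lowered contigs 2.88% ± 0.37, on the drought side of the infested controls in both cases. The infested controls helped to choose these contigs, so that side is favoured by the choice and is a description as well.

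Rises and falls in mean CPM were ranked among called contigs with a fold of at least 2 and groups that do not overlap. The largest rise was that of comp5950_c0_seq1, 1495 bases long. It stood at 688, 488 and 636 CPM in infested drought libraries 1, 2 and 3 and at 231, 350 and 129 CPM in the infested controls. Groups without overlap were a condition of the ranking, and control library 2 was the highest of its group. The log2 fold change was 1.35 ± 0.29 (SE) with an adjusted p of 0.0151. In uninfested leaves the same contig read 397, 598 and 570 CPM under drought and 109, 130 and 132 CPM in controls, a log2 fold change of 2.07. Herbivory in flooding plants also raised it, by a log2 fold change of 1.05. Its call in infested leaves was lost in 3 of the fits that left out a library, namely infested drought 1 (adjusted p of 0.058), infested drought 3 (0.0547) and infested control 1 (0.058). It was also lost when the fit used the compared libraries alone (0.0766).

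Second by rise in mean CPM was comp2574_c0_seq1, of 1473 bases, with very even replicates under drought. Infested drought libraries gave 238, 245 and 244 CPM and infested controls 99.2, 78.1 and 66.1 CPM. The log2 fold change was 1.58 ± 0.19, with an adjusted p of 0.000702, and the call held in each alternative and with each library left out. Uninfested leaves gave 303, 320 and 276 CPM under drought and 125, 127 and 86.8 CPM in controls, so the contig responded to drought with and without caterpillars. Flooding raised it in uninfested leaves too, by a log2 fold change of 1.03. Herbivory in flooding plants gave -0.49, which did not pass the test (adjusted p of 0.0861).

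On the falling side, comp1297_c0_seq1, 2648 bases long, had the largest fall in mean CPM among the contigs ranked. It stood at 688, 910 and 910 CPM in infested drought libraries and at 1684, 1565 and 2040 CPM in infested controls. The fall was -1.08 ± 0.20 on the log2 scale, with an adjusted p of 0.00787, and the call held in each alternative and with each library left out. In uninfested leaves the values were 1082, 887 and 912 CPM under drought and 3187, 2061 and 1774 CPM in controls, a log2 fold change of -1.29. The contig also fell with herbivory in flooding plants (-0.83) and with flooding in uninfested leaves (-0.998).

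The next largest fall in mean CPM was that of comp570_c0_seq1, 755 bases long. Infested drought libraries gave 810, 690 and 518 CPM and infested controls 1273, 1349 and 1517 CPM. The log2 fold change was -1.04 ± 0.22 with an adjusted p of 0.0147. Without infested drought library 3 the adjusted p was 0.0735, and without infested control library 3 it was 0.0615. The fall was there in uninfested leaves as well, with 488, 687 and 669 CPM against 1232, 1293 and 1048 CPM, and flooding lowered the contig by a log2 fold change of -1.01. Herbivory in flooding plants left it at a log2 fold change of 0.31, which did not pass the test (adjusted p of 0.37).

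Of the 5 largest rises in mean CPM, all 5 were also called as raised by drought in uninfested leaves, and of the 5 largest falls, 4 were called as lowered there. Of all contigs tested, 5.75% were called as raised and 8.68% as lowered there. The ranks are of reads, without regard to contig length. The exception was the contig of 2182 bases that ranked last of these falls. It stood at 307, 245 and 247 CPM in infested drought libraries and at 720, 426 and 761 CPM in infested controls, a log2 fold change of -1.26 ± 0.25 with an adjusted p of 0.0107. In uninfested leaves it was low throughout, at 184, 222 and 125 CPM under drought and 131, 134 and 163 CPM in controls, and those groups overlapped. Feeding raised it in flooding plants by a log2 fold change of 1.51. The test of the difference between the infested and uninfested drought effects gave -1.57 with an unadjusted p of 0.00036 and an adjusted p of 0.425, so the difference did not pass. Its call in infested leaves was lost without infested drought library 3 (adjusted p of 0.0523) and without infested control library 3 (0.0529).

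**Figure D2:**
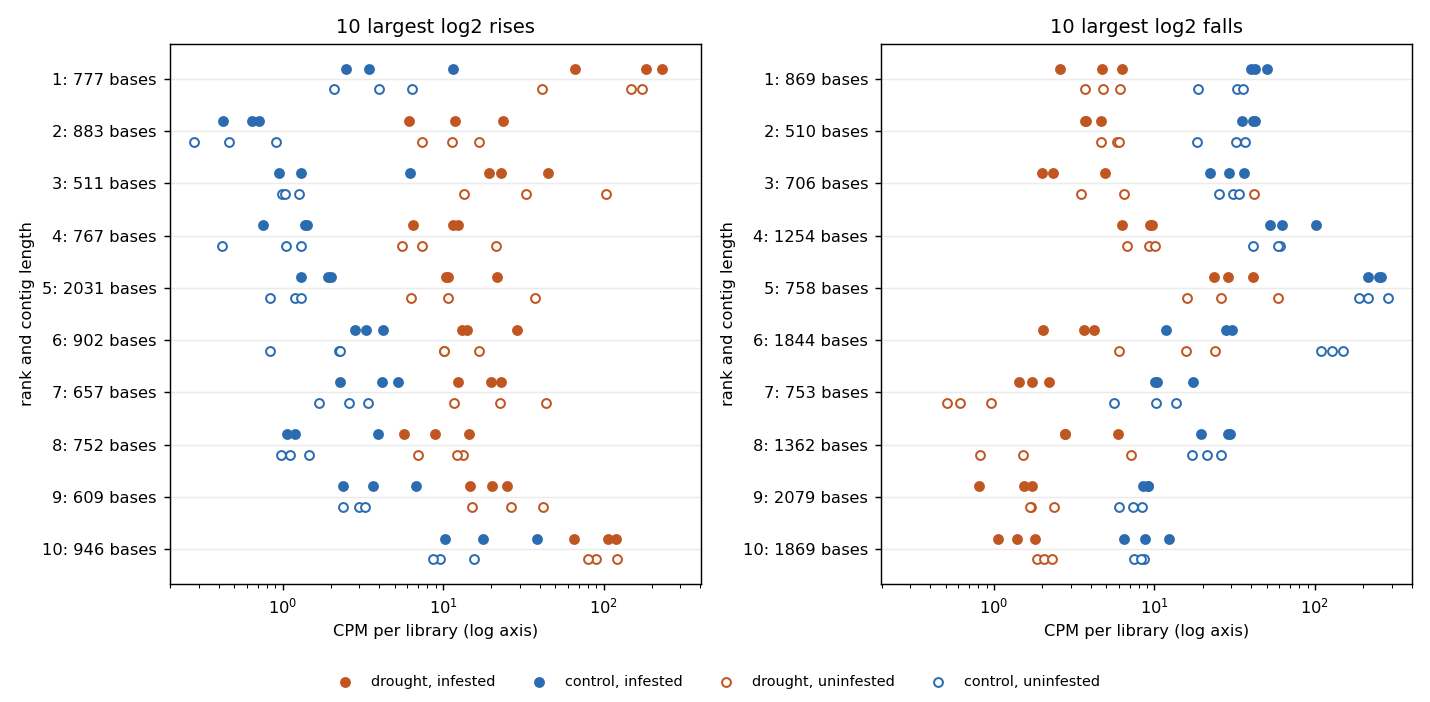
CPM in each library (log axis) for the 10 largest log2 rises and the 10 largest log2 falls among called contigs with non-overlapping infested groups and at least 8 CPM in the higher group, by rank and contig length. Filled points are infested and open points uninfested leaves; the open points fall on the same sides as the filled points in nearly every row, with the 706-base fall (rank 3) as the exception, where 1 uninfested drought library sits at 41.5 CPM.

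The 10 largest log2 rises ranged from 2.13 to 4.78, with adjusted p-values of 0.00196 to 0.0304, in contigs of 511 to 2031 bases. All 10 were called as raised in uninfested leaves as well, beside 5.75% of all contigs. Their log2 fold changes there were 2.69 to 5.53, and none passed the test of the difference (adjusted p of 0.764 or more). Over 30 alternative fits, 5 of the 10 kept the call in each, and the most often lost, of 511 bases, missed it in 6. Herbivory in flooding plants raised 3 of the 10 and lowered 0, beside 9.58% and 5.79% of all contigs. The largest rise belonged to a contig of 777 bases. It stood at 184, 66.9 and 230 CPM in infested drought libraries and at 3.44, 11.5 and 2.49 CPM in infested controls, a log2 fold change of 4.78 ± 0.68. Drought was the water treatment under which it was high, since infested flooding libraries held 11, 4.98 and 10.6 CPM and uninfested flooding libraries 4.54, 3.41 and 4.22 CPM.

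A pair of contigs among these rises, of 657 and 609 bases (ranks 7 and 9), had another profile. The 657-base contig held 22.9, 12.4 and 19.97 CPM in infested drought libraries and 4.15, 5.20 and 2.27 CPM in infested controls. Infested flooding libraries held 59.3, 71.5 and 45.4 CPM of it. The 609-base contig gave 25.045, 14.7 and 20.1 CPM, then 3.67, 6.80 and 2.38 CPM, and 58.7, 81.0 and 51.1 CPM in the same 3 groups. Both rose with drought and stood higher still in flooding leaves, and flooding in uninfested plants raised them by log2 fold changes of 4.45 and 4.37.

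The 10 largest log2 falls ranged from -3.31 to -2.68, with adjusted p-values of 0.000517 to 0.0403, in contigs of 510 to 2079 bases. Of these, 9 were also called as lowered in uninfested leaves, beside 8.68% of all contigs. The 706-base contig of rank 3 lost its call in 15 of the 30 fits and the 1362-base contig of rank 8 in 11, and leaving out any 1 of the 6 infested libraries compared was enough for either. The 753-base contig of rank 7 lost it in 1, and the other 7 in none. The largest fall was that of an 869-base contig, at 2.57, 6.26 and 4.70 CPM in infested drought libraries and 42.4, 40.1 and 50.5 CPM in infested controls. The log2 fold change was -3.31 ± 0.35. A 510-base contig of rank 2 gave 3.71, 4.64 and 3.74 CPM against 41.4, 35.3 and 42.1 CPM, and a fall of -3.30 ± 0.33. Both of these contigs were raised by herbivory in flooding plants (1.83 and 1.77) and lowered by flooding in uninfested leaves (-3.13 and -2.98). In the rank 6 fall, of 1844 bases, feeding and drought went the same way. It held 3.62, 4.17 and 2.02 CPM in infested drought libraries, 30.6, 11.8 and 27.8 CPM in infested controls, and 109, 150 and 128 CPM in uninfested controls.

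The uninfested leaves give the same comparison in 6 libraries that are not in the infested comparison. Drought called 2910 contigs there (14.4%), of which 1160 (5.75%) rose and 1750 (8.68%) fell. Those libraries were deeper on average, at 12206778 reads for uninfested drought and 13102408 for uninfested control, against 9915308 and 9547525 for the infested groups, and the part of depth in the difference of counts was not tested. The count fell to 1505 without uninfested control library 1, to 1617 without uninfested control library 2, to 1534 without uninfested drought library 1 and to 1620 without uninfested drought library 2. Among calls of at least 8-fold, 91 rose and 23 fell in uninfested leaves.

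Of the contigs called for drought in either kind of leaf, 654 were called in both, 307 in infested leaves alone and 2256 in uninfested leaves alone. The 221 contigs raised in both were 58.5% of the infested and 19.1% of the uninfested raised calls. The 433 lowered in both were 74.3% of the infested and 24.7% of the uninfested lowered calls. Contigs called in opposite directions numbered 0 in the edgeR fit of all libraries, 2 with DESeq2 and 1 on the deposited normalized values. The edgeR fits without uninfested drought library 1, uninfested drought library 2 or uninfested control library 3 gave 1 each. Of the 378 contigs raised in infested leaves, 362 (95.8%) had a positive fold change in uninfested leaves, and of the 583 lowered, 575 (98.6%) had a negative fold change. Across all 20170 contigs the log2 fold changes correlated with Pearson's r of 0.61 and Spearman's rho of 0.56. These points come from different libraries but share the contigs and the dispersion estimate.

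**Figure D3:**
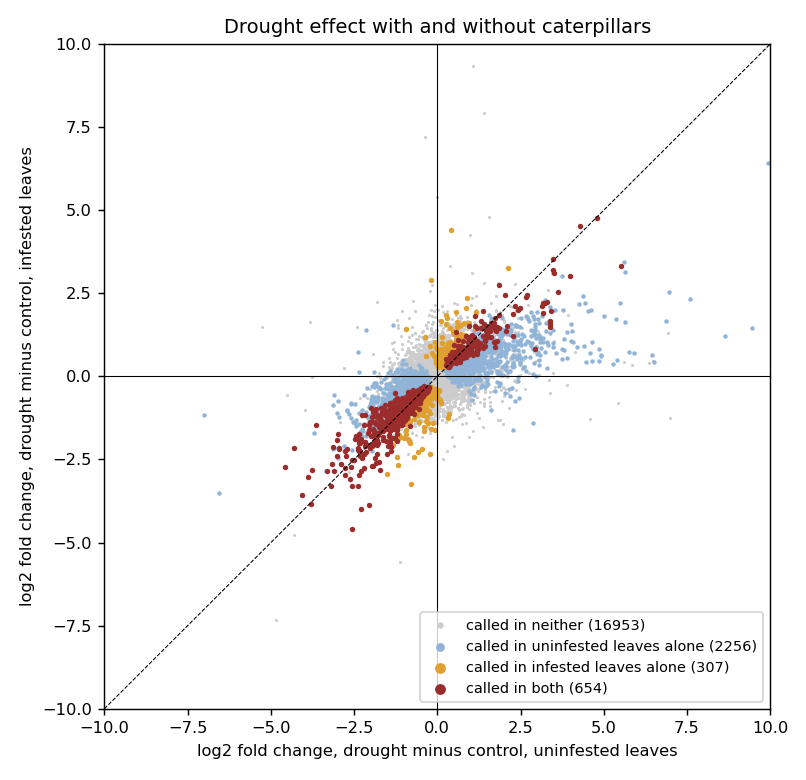
Log2 fold change (drought minus control) of each contig in uninfested leaves (horizontal) and infested leaves (vertical), with the line of equal effect dashed. Contigs called in both (654, red) lie at the lower left and upper right, 307 were called in infested leaves alone (yellow), 2256 in uninfested leaves alone (pale blue) and 16953 in neither (grey); a call in 1 comparison alone is not a test that the effects differ.

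Each set of calls had larger effects in the libraries that chose it. For contigs raised in infested leaves the median log2 fold change was 0.73 there and 0.54 in uninfested leaves. For contigs lowered in infested leaves the medians were -1.0 and -0.94. The 1160 contigs raised in uninfested leaves had a median of 0.92 there and 0.45 in infested leaves, and the 1750 lowered had -0.87 and -0.49. Choosing contigs by a threshold favours values that happen to be large in those libraries, so a smaller median in the other libraries is not by itself a weaker response.

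The test of the difference between the infested and uninfested drought effects called 0 contigs with edgeR (0% of those tested). At an unadjusted p of 0.05 it had 1301 contigs (6.45%), and the smallest adjusted p was 0.127. DESeq2 called 30, and in 25 of them the signed log2 fold change for drought was lower in infested than in uninfested leaves. A lower signed value can be a weaker rise or a stronger fall. A fit of the 12 drought and control libraries alone called 3. With 1 library left out the count was 2 without infested control library 3, and 1 each without uninfested drought library 3, uninfested flooding library 2 or uninfested flooding library 3. A p that misses the threshold does not show that the effects are equal.

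The contig with the smallest interaction p, 1144 bases long, responded to feeding and to drought. In uninfested controls it held 9.50, 10.6 and 10.6 CPM and in uninfested drought leaves 87.5, 75.4 and 72.2 CPM. Infested controls held 122, 98.6 and 71.8 CPM and infested drought leaves 147, 160 and 216 CPM. The drought effect was thus 2.93 on the log2 scale without caterpillars and 0.84 ± 0.22 with them (adjusted p of 0.042), and the difference of -2.09 had an adjusted p of 0.127. Among the 10 contigs with the smallest interaction p, 8 were raised by herbivory in flooding plants and 0 were lowered, beside 9.58% and 5.79% of all contigs, and DESeq2 called all 10.

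An abundant contig of 1976 bases in that list was at a high level in all infested leaves. It held 2109, 1987 and 1826 CPM in infested drought libraries and 2123, 2934 and 1519 CPM in infested controls, and the groups overlapped. Uninfested controls held 81.8, 73.3 and 158 CPM and uninfested drought leaves 326, 674 and 669 CPM. Drought gave a log2 fold change of -0.15 ± 0.35 with caterpillars (adjusted p of 0.86) and raised the contig by 2.41 without them. The adjusted p of the difference was 0.425.

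Another contig of the list, of 1667 bases, rose with drought where caterpillars fed. Infested drought libraries held 21.4, 13.1 and 24.6 CPM and infested controls 9.48, 6.90 and 9.62 CPM, a log2 fold change of 1.19 ± 0.22 with an adjusted p of 0.007. In uninfested leaves it stood at 4.81, 4.805 and 3.74 CPM under drought and 7.13, 5.62 and 4.95 CPM in controls, a log2 fold change of -0.38 that did not pass the test. The difference of 1.57 had an adjusted p of 0.425. A 935-base contig had the opposite order, at 52.6, 53.3 and 37.8 CPM in infested drought libraries and 74.0, 95.3 and 65.8 CPM in infested controls. Its infested log2 fold change of -0.71 did not pass the test (adjusted p of 0.116), and drought raised it in uninfested leaves by 1.05.

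Most of the 307 contigs called in infested leaves alone had a fold change of the same sign in uninfested leaves, where none of them passed the test. Over all contigs 69.7% had the same sign in both. On the log2 scale, the 157 raised contigs had median changes of 0.65 in infested and 0.24 in uninfested leaves, and 16 of them had the opposite sign there. The 150 lowered contigs had medians of -0.78 and -0.35, and 8 had the opposite sign. The interaction reached an unadjusted p of 0.05 in 58 of the 157 (36.9%) and 38 of the 150 (25.3%), beside 6.45% of all contigs, and in none of them an adjusted p of 0.05. Since these contigs passed in infested leaves and missed in uninfested leaves, such unadjusted values are favoured by the choice.

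Sets of contigs called in libraries outside the infested comparison show which other responses the drought effect touched. Of the 1160 contigs raised by drought in uninfested leaves, 221 (19.1%) rose and 0 fell in infested leaves. Of the 1750 lowered, 433 (24.7%) fell and 0 rose. Over all contigs tested the shares were 1.87% raised and 2.89% lowered. Without infested drought library 1, 2 or 3 the 221 became 86, 156 or 83 and the 433 became 186, 233 or 155, and without infested control library 1 or 3 they became 101 or 66 and 206 or 163. The mean log2 CPM of the raised set, relative to uninfested controls, was 1.198, 1.05 and 1.28 in infested drought libraries and 0.61, 0.72 and 0.39 in infested controls, and the groups did not overlap. For the lowered set the values were -0.88, -0.77 and -0.96 against -0.27, -0.34 and -0.12. In both sets infested control library 2 lay nearest to the drought libraries and infested control library 3 farthest from them.

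Contigs with the largest uninfested responses had larger medians in infested leaves. For the 91 contigs raised at least 8-fold by drought without caterpillars, the median was 1.37 in infested leaves on the log2 scale. Of them 17 (18.7%) rose and 0 fell there, and all 91 had a positive fold change. Over all contigs 1.87% rose and 51.4% had a positive fold change. The called share of the 91 was near the 19.1% of the whole raised set, so only their median was larger. The 23 lowered at least 8-fold had a median of -2.40, and 14 of them (60.9%) fell, beside 24.7% of the whole lowered set and 2.89% of all contigs. In the libraries that chose them the log2 medians of the 91 and the 23 were 3.77 and -3.33. By mean CPM over the 18 libraries these sets had medians of 4.52 and 2.45, beside 15.2 over all contigs.

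**Figure D4:**
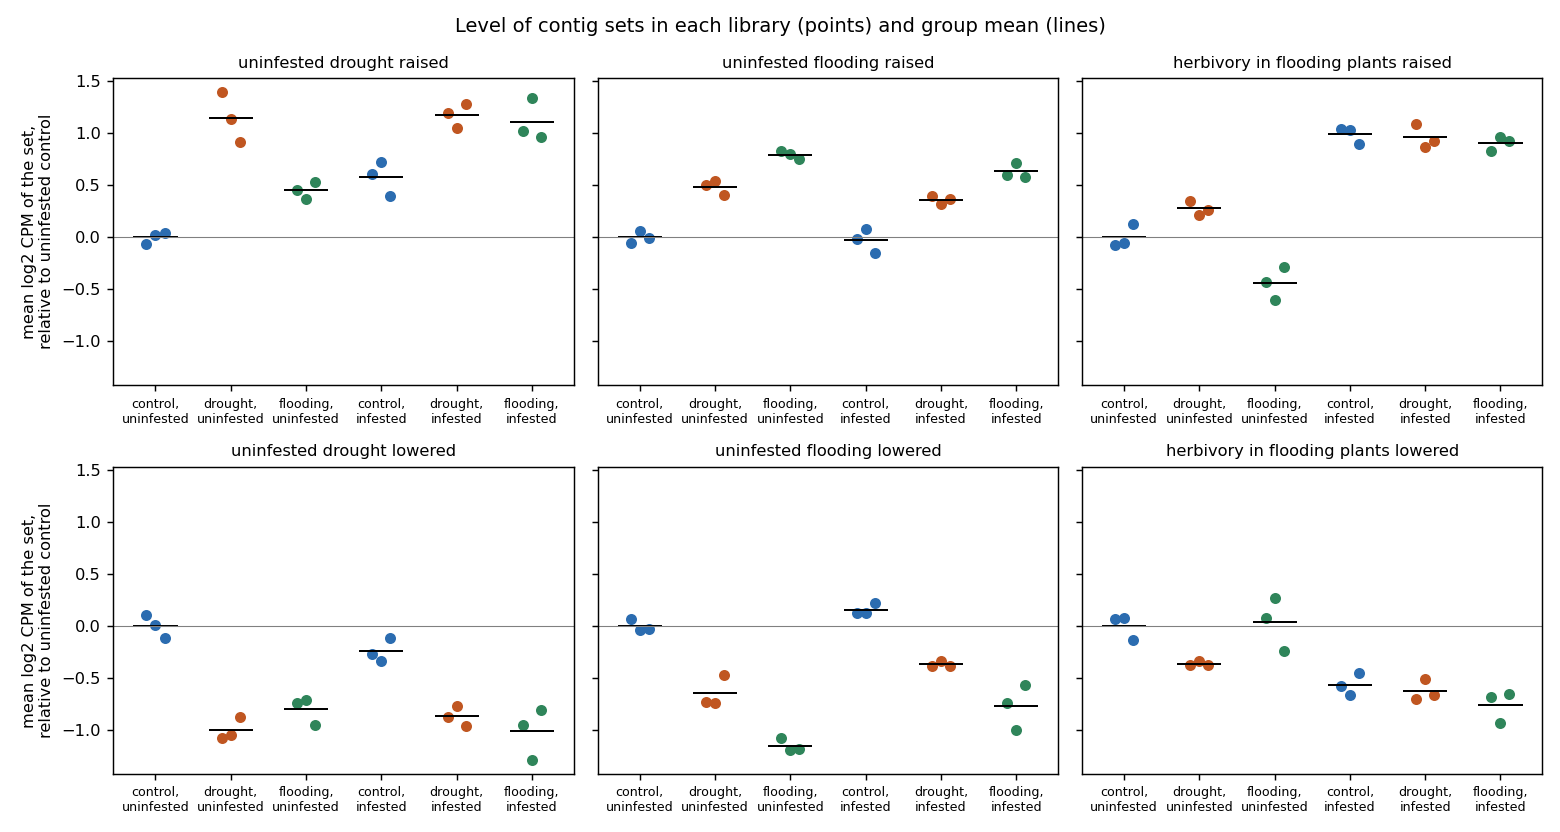
Mean log2 CPM of 6 contig sets in each of the 18 libraries (points) and the group means (lines), relative to the mean of uninfested controls. Drought and control points separate among infested leaves in the drought and flooding sets, while the herbivory-raised set lies near 1 in all infested groups, at 0.99 ± 0.08 in infested control and 0.96 ± 0.12 in infested drought leaves.

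Contigs called for flooding in uninfested leaves leaned the same way under drought in infested leaves. Of the 1170 raised by flooding (5.8%), 172 (14.7%) rose and 0 fell, with a median log2 fold change of 0.28. Of the 2043 lowered by flooding (10.1%), 418 (20.5%) fell and 4 rose, with a median of -0.43. Over all contigs 1.87% rose and 2.89% fell. The 172 became 62, 100 or 75 without infested drought library 1, 2 or 3, 77 or 53 without infested control library 1 or 3, and 110 without uninfested control library 3. The 418 became 168, 207 or 150 without infested drought library 1, 2 or 3 and 196 or 163 without infested control library 1 or 3. The medians stayed between 0.26 and 0.35 for the raised and between -0.51 and -0.41 for the lowered set. The raised set itself held 612, 742 or 648 contigs without uninfested control library 1, 2 or 3 and 720 without uninfested flooding library 1, and the lowered set 1341 without uninfested control library 1. The flooding and drought sets of uninfested leaves share their 3 control libraries, so how far these sets coincide is not given as a result. Contigs in the drought set and the flooding set in the same direction had medians of 0.48 when raised (415 contigs, 124 of them raised in infested leaves) and -0.70 when lowered (893 contigs, 335 of them lowered). Those in the drought set alone had medians of 0.44 (745 contigs, 97 raised) and -0.34 (857 contigs, 98 lowered). In uninfested leaves the corresponding drought medians were 0.71 and -1.01 for the shared contigs, and 1.05 and -0.76 for the rest.

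Contigs that feeding raised in flooding plants stood above uninfested controls in both infested groups, at levels that overlapped. Herbivory was read in flooding plants, infested against uninfested, which shares no library with the drought comparison. It raised 1933 contigs (9.58%) and lowered 1167 (5.79%). These set sizes rest on single libraries: without uninfested flooding library 2 they were 1120 and 357. The lowered set held 620 contigs without uninfested flooding library 1, 2228 without uninfested flooding library 3 and 485 without infested flooding library 2. A fit of the compared libraries alone gave 983 raised and 250 lowered. The raised set stood at 0.87, 0.93 and 1.09 in the infested drought libraries and at 0.90, 1.03 and 1.04 in the infested controls, in log2 CPM above uninfested controls. Uninfested drought leaves, with no caterpillars, were at 0.28 ± 0.07 (SD, n = 3) for the same set. The lowered set was at -0.63 ± 0.11 in infested drought and -0.57 ± 0.10 in infested control leaves, and at -0.36 ± 0.02 in uninfested drought leaves. All these levels are relative to uninfested controls, so those of infested drought leaves hold drought and feeding together. Overlapping levels do not show that drought and control plants responded alike to feeding, and that was not tested.

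Within the herbivory-raised set, more contigs fell with drought than rose. In infested leaves 130 of the 1933 (6.73%) fell and 39 (2.02%) rose, with a median log2 fold change of -0.07, beside 2.89%, 1.87% and 0.0094 over all contigs. The set was called against uninfested flooding leaves, where its level was already -0.44 ± 0.16 relative to uninfested controls. It can therefore hold contigs that flooding alone lowered, and the part of flooding in these counts was not tested. With any 1 library left out, the lowered contigs of this set numbered 38 to 161 and the raised ones 10 to 55. The lowered count was 53, 43 or 38 without infested drought library 1, 2 or 3 and 49, 86 or 49 without infested control library 1, 2 or 3. The raised count was 10 or 19 without infested drought library 1 or 3, and 20 or 10 without infested control library 1 or 3. Of the 130 that fell, 63 were also lowered by drought in uninfested leaves, 67 were not called there and 0 were raised. Of the 39 that rose, 32 were raised by drought in uninfested leaves, 7 were not called and 0 were lowered. Among the 189 contigs raised at least 8-fold by herbivory, 5 rose and 5 fell, 60.8% had a positive fold change, and the median was 0.30. Their level was 3.04 ± 0.20 in infested drought and 2.71 ± 0.24 in infested control leaves, and these groups overlapped. The herbivory-lowered set held 39 raised and 53 lowered contigs (3.34% and 4.54%), with a median of -0.01 that ran from -0.10 to 0.04 when 1 library was left out. Its counts were as unsteady, at 13 to 108 raised and 16 to 85 lowered. Both highest counts came without uninfested flooding library 3, the lowest raised count without uninfested flooding library 1 or 2, and the lowest lowered count without infested drought library 3. Left out singly, 11 of the 18 libraries moved the raised or the lowered count by more than 1.5 times, and no direction is read from this set.

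Split by both responses, the median drought effect in infested leaves had the sign of the uninfested drought call, whatever the herbivory call. The 127 contigs that uninfested drought lowered and herbivory raised had a median of -0.70, and 63 of them (49.6%) fell. Their set level was 0.58, 0.58 and 0.56 in infested controls and -0.07, -0.20 and -0.33 in infested drought leaves, with no overlap and almost no spread among the controls. In uninfested drought leaves the level was -0.96 ± 0.21. Uninfested flooding leaves, against which herbivory was called, were at -1.26 ± 0.08. The 31 contigs raised by uninfested drought and lowered by herbivory had a median of 0.62, and 16 of them (51.6%) rose. Of all contigs tested, 1.87% rose and 2.89% fell.

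Uninfested drought and herbivory both raised 333 contigs, and among infested leaves their level was higher under drought than in controls. Of the 333, 32 (9.61%) rose with drought in infested leaves, beside 173 of the 796 (21.7%) that uninfested drought raised and herbivory left uncalled. The medians in infested leaves were 0.42 and 0.46. In uninfested leaves, whose libraries chose both sets for drought, the medians were 1.29 and 0.79. The level of the 333 contigs was 1.48 ± 0.25 in uninfested drought leaves, 1.54 ± 0.21 in infested controls and 2.09 ± 0.15 in infested drought leaves, relative to uninfested controls. Infested flooding leaves were at 1.91 ± 0.21, which overlapped infested drought leaves. Uninfested drought, uninfested control and infested flooding libraries helped to choose these contigs. Their levels, and any overlap with them, are in part set by the choice and are a description. With that limit, uninfested drought leaves and infested controls lay within each other's spread. Whether the difference in called share exceeds chance was not tested. Among contigs that both treatments lowered (300), 49 (16.3%) fell and 0 rose, with a median of -0.41. Of all contigs tested, 2.89% fell and 1.87% rose.

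**Figure D5:**
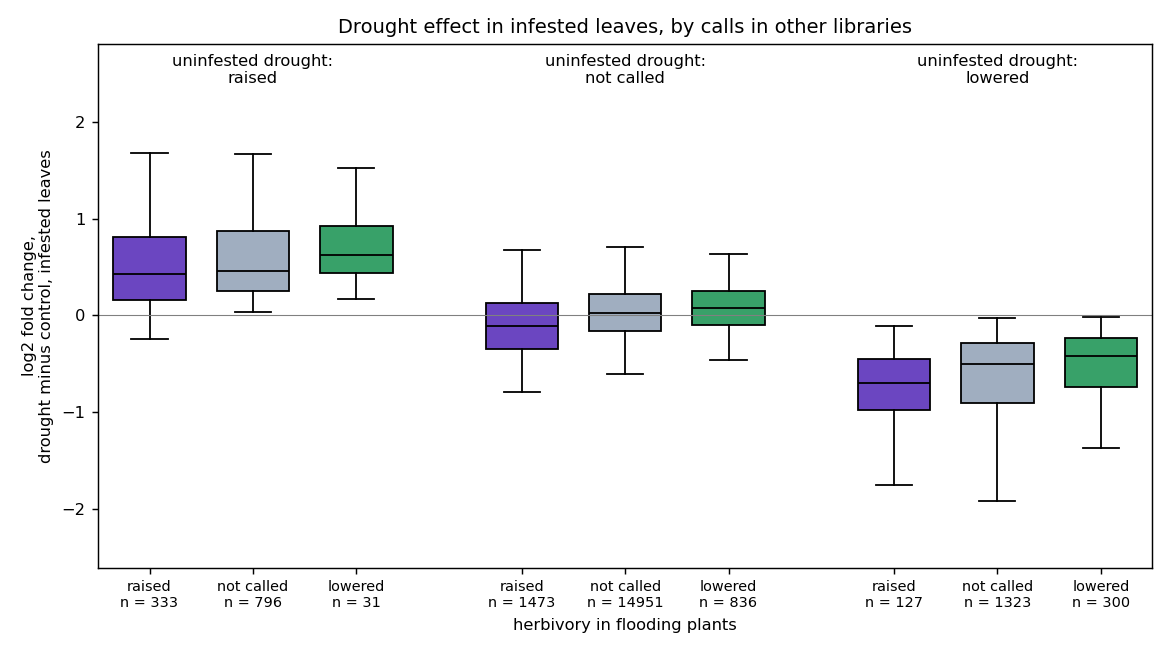
Log2 fold change between infested drought and infested control leaves for contigs grouped by their call for drought in uninfested leaves (left, middle, right) and for herbivory in flooding plants (colours), with the number of contigs under each box. Boxes span the quartiles with the median as a line, and whiskers run from the 5th to the 95th percentile; the medians lie between 0.42 and 0.62 on the left, between -0.11 and 0.07 in the middle and between -0.70 and -0.41 on the right.

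Contigs without a drought call in uninfested leaves had medians nearer to 0. Of the 1473 that herbivory raised, 67 (4.55%) fell and 7 (0.475%) rose with drought in infested leaves, with a median of -0.11. Of the 836 that herbivory lowered, 4 (0.478%) fell and 23 (2.75%) rose, with a median of 0.07. In the 14951 contigs called in neither, 127 (0.849%) rose and 79 (0.528%) fell, with a median of 0.03. Relative to uninfested controls, uninfested flooding leaves were at -0.48 ± 0.17 for the 1473 contigs and 0.17 ± 0.25 for the 836. No test of the shifts in infested leaves was made.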

How the data were processed

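Leaf RNA of 18 libraries was sequenced. The deposited tables were raw counts of reads per contig (24158 contigs, 501 to 15047 bases, 546 of them without a read) and a normalized signal for 22410 contigs. On its values, the authors' normalized signal equals the raw count times a factor per library and per kilobase, with a largest relative departure of 1.1e-09. Bowtie 0.12.7 and DESeq are named in the submitters' processing notes. How contigs were assembled, how reads were counted and whether strand was used are not given in the sources used here, so overlapping transcripts and near-identical copies may share reads. Columns were tied to samples by the column number in each label, leaving 0 unmapped.

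Counts were analysed with edgeR 4.0.16 in R 4.3.3: filterByExpr (minimum count 10, total 15) kept 20170 contigs with at least 99.9% of reads, TMM scaling, and a robust quasi-likelihood fit of 6 group means to all 18 libraries (12 residual degrees of freedom). Adjusted p is Benjamini-Hochberg over all tested contigs. SE is the absolute log2 fold change over the square root of F. Log2 CPM used a prior count of 2. Alternatives used DESeq2 1.42.0, limma 3.58.1 and limma-trend on log2 of the signal with pseudocounts of 1 and 0.1. The pipeline was tested on simulated data. Totals were 6717218 to 16056241 reads per library, and the biological coefficient of variation was 18.6%. The 12 pairs of drought or control replicates differed by more than counting noise (chi-square per degree of freedom of 7.27 to 23.9).

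None of the contig IDs was in the reference gene table (0 of 24158), so gene lists were not used. IDs are printed for the 2 largest rises and 2 largest falls in mean CPM among called contigs with a fold of at least 2 and groups that do not overlap. The 5 largest rises and falls in mean CPM, the 10 largest log2 rises and falls with at least 8 CPM in the higher group, and the 10 smallest interaction p-values are described by length. The members and lists were chosen with earlier results of these data known. Sets called outside the infested comparison carry counts and medians, with no test.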

Additional observations from a re-analysis of the deposited data

How the results depend on the processing

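None of the contigs in the lists of largest rises and falls changed direction in infested leaves under the alternatives tried. The contigs with the smallest interaction p were not part of that check. Other scalings, filters, limma-voom and the normalized values gave 877 to 986 infested calls. DESeq2 called 1539 infested contigs against 961, 30 contigs for the difference against 0, and 372 raised and 657 lowered contigs that were also called in uninfested leaves, against 221 and 433. A fit of the compared libraries alone called 3 contigs for the difference. Defining the uninfested sets with a fold of at least 2 as well left 99 and 257 in the overlap, since the sets are then smaller. The cause of the other shifts was not tested.

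With each library left out in turn, infested calls ran from 302 to 1137, uninfested calls from 1505 to 3230, calls for the difference from 0 to 2, and contigs called in both from 66 to 273 (raised) and from 155 to 527 (lowered). The lowest counts of calls came with a library of the compared groups left out, and a group of 2 libraries is assumed to vary like the other groups.

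Same-numbered infested drought and control libraries showed no clear shared deviation (correlations of 0.038, -0.022 and -0.0005). In other pairs of groups the same-numbered values ran from -0.20 to 0.28. With 3 libraries in a group such values cannot exclude pairing, and the labels do not state what the numbers mean. A replicate block gave 773 infested calls, 2501 uninfested calls and 0 for the difference, with 200 raised and 336 lowered in both.

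For the contigs in the lists of largest rises and falls, 797 of the repeated fits kept the call and direction and 73 lost the call. Contigs under 1 CPM rest on few reads, and gene identities and measures of drought or feeding were not used here.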
